A study of Mus musculus with 8 samples.

Results

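The SLC25 family is the set of mitochondrial carriers, most of them proteins of the inner mitochondrial membrane. These move nucleotides, phosphate, organic acids, amino acids, cofactors and metal ions between the cytosol and the mitochondrial matrix. In the liver these carriers serve the export of citrate for lipid synthesis, the malate-aspartate shuttle, the urea cycle, the entry of acylcarnitine for fatty acid oxidation and the supply of iron and glutathione. The carriers are encoded in the nucleus and made in the cytosol, and those of the inner membrane are inserted through the TIM22 complex. Transcripts of the family are therefore read here beside those of the import machinery. The members were the genes whose symbol is Slc25a followed by a number, and 43 of the 21532 genes measured met this rule. Tests covered 41 of them, since Slc25a2 and Slc25a18 averaged under 10 normalized counts. Carriers under other symbols, such as Ucp2, are described among the partner genes.

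The livers came from male db/db mice, 4 per group and 8 in all, which carry a leptin receptor mutation on both alleles and become obese and diabetic, and their RNA was sequenced. From 8 weeks of age, mice were injected behind the eye with 5 mg/kg of control or of AF1 peptide 2 times per week for 5 weeks. The AF1 peptide is derived from the amino-terminal part of estrogen receptor alpha, and what the control injection contained is not given in the sources used here. All mice had the db/db genotype and no lean mice were part of this comparison, so the data describe the peptide within an obese model. The values are normalized counts, which are reads per gene divided by 1 size factor per library. Because whole liver was used, fewer cells of a type and less RNA per cell cannot be told apart.

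The libraries held 23031880 to 45117528 reads. All 8 listed hepatocyte markers were measured in every mouse, with summed normalized counts of 2491910 to 2689550 in control mice and 1971170 to 2638920 in AF1 peptide mice. The library of AF1 peptide replicate 1 stood apart. Its score on the first principal component, which held 39.3% of the variance, was 74.2, against -21.8 to 2.33 in the other mice. It had the lowest summed markers of hepatocytes, of Kupffer cells (2767 against 6101 to 7610 in control mice) and of sinusoidal endothelium. Those of stellate cells, biliary epithelium and red blood cells were also lowest in this mouse. Its summed fat markers, from the 2 of 5 listed genes found, Cfd and Adrb3, were highest (750 against 230 to 384 in control mice). The other listed fat genes, Adipoq, Lep and Plin1, were not among the genes measured in any mouse. The hepatocyte list includes Ass1, whose normalized count was highest in this mouse, at 188675 against 35537 to 77767 in the others. Its mitochondrially encoded genes took 20.8% of reads against 22.4% to 37.8% in the others. The part of these differences in the results was not tested, and the calls of members and partner genes that this mouse decides are given with and without it.

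Before the values, 3 stretches of sequence are shown for the members on which the results turn. These are Slc25a25, which varied most from mouse to mouse among abundant members, Slc25a30, the member that was lower with AF1 peptide, and Slc25a47, the member with the highest level. Each is the 250 bases before a transcript start in RefSeq (GRCm38.p6), written 5′ to 3′ on the strand of the gene, with capitals marking the cAMP response element TGACGTCA and the GC box GGGCGG or its reverse complement CCGCCC. The Slc25a25 window lies on the minus strand at chr2:32424067-32424316, inside the gene and outside its exons. The Slc25a30 window lies on the minus strand at chr14:75787038-75787287, directly before the gene and in no annotated gene. The Slc25a47 window lies on the plus strand at chr12:108850879-108851128, in an intron of a longer transcript of the gene.
Slc25a25: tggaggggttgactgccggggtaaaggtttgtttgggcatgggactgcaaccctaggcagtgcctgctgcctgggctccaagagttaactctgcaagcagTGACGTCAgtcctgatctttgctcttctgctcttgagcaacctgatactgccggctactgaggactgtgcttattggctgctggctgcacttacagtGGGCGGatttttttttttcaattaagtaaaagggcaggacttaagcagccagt
Slc25a30: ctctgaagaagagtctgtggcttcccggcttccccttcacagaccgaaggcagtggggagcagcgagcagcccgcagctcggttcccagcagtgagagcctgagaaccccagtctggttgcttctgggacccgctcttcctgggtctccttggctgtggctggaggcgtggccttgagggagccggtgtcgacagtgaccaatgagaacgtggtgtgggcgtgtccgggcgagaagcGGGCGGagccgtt
Slc25a47: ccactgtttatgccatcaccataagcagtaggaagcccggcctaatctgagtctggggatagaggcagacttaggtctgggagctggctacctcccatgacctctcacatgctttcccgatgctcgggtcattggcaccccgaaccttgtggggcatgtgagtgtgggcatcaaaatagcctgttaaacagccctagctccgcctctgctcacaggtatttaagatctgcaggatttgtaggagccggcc
The cAMP response element, the binding site of CREB, began 150 bases before the Slc25a25 start and a GC box began 53 bases before it. In Slc25a30 a GC box began 13 bases before the start, and neither motif was found in the Slc25a47 window.

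Entries for 33 of the 43 members were found in the promoter table, with 43 starts in all, and both strands of each window were searched. The cAMP response element was present in 2 of 33 members, Slc25a25 and Slc25a36, and in 1.77% of all genes with an entry (1.55% of their 32851 starts). The GC box, a site of SP1 and its relatives, was in 24 of 33 members (72.7%) against 35.4% of all genes with an entry, and in 31 of 43 member starts (72.1%) against 32.7% of all starts. The TATA box TATAAA was in 2 of 33 members, Slc25a18 and Slc25a21, and in 14.3% of all genes with an entry. The core AGGTCA of the estrogen response element, which other nuclear receptors also use, was in 4 of 33 members, Slc25a34, Slc25a39, Slc25a45 and Slc25a47, and in 15.8% of all genes with an entry. The forkhead motif TGTTTAC was in none of the 33 members and in 3.54% of all genes with an entry. These matches describe letters in a window, and binding was not measured.

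The levels of members were compared per kilobase of merged exons, since counts grow with transcript length. Slc25a47, a carrier found mainly in liver whose substrate is unsettled, had the highest mean level at 7852 normalized counts per kilobase, with a range over the 8 mice of 5522 to 9825. Slc25a5, the main adenine nucleotide translocase of liver, which exchanges ADP for ATP, followed at 5425. Slc25a39, a carrier needed for mitochondrial glutathione, stood at 4710, Slc25a10, the dicarboxylate carrier, at 3914, and Slc25a1, the citrate carrier, at 2829. The ranges of neighbours among the first 4 overlapped. The higher gene of each step was above the next in 7, 6 and 7 of 8 mice, so their order did not hold in every mouse. Slc25a10 was above Slc25a1 and Slc25a1 above the sixth gene in 8 of 8 mice, with no overlap of ranges. About 33.8% of the 50-base words in Slc25a5 transcripts are shared with 9 other genes, so its level is uncertain where reads were split between copies.

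Together these 5 members held 69.0% ± 4.30 (SD, n = 8) of the summed level of the family. The share was 59.6% in AF1 peptide replicate 1 and 66.1% to 72.4% in the other 7 mice. With coding length in place of merged exons, or with no length correction, Slc25a22 took the place of Slc25a1 among the first 5. The next members, between 1255 and 842 normalized counts per kilobase, were Slc25a22 (a glutamate carrier), Slc25a23 (an ATP-Mg/phosphate carrier), Slc25a3 (the phosphate carrier), Slc25a20 (the carnitine and acylcarnitine carrier), Slc25a11 (the oxoglutarate carrier) and Slc25a15 (the ornithine carrier of the urea cycle). Every step of order from Slc25a22 to Slc25a51 had overlapping ranges, though Slc25a23 was above Slc25a3 in 8 of 8 mice. The lowest of the 43 was Slc25a53, at 1.61 normalized counts per kilobase.

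**Figure D1:**
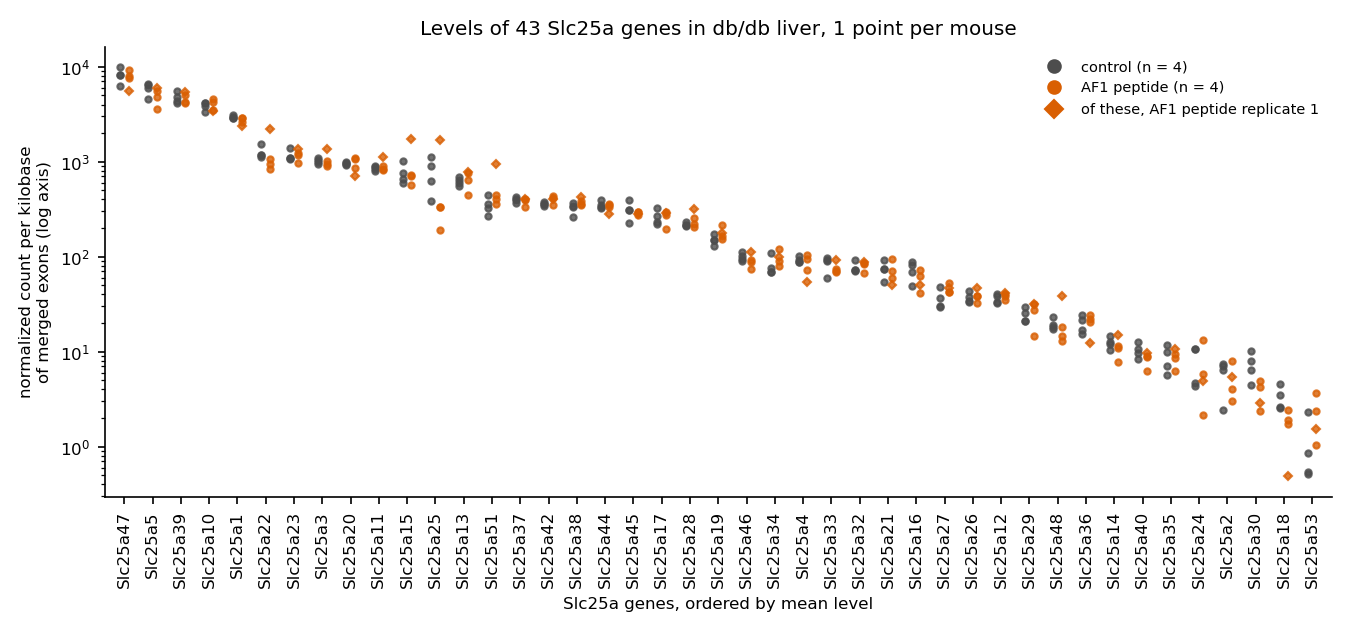
Normalized count per kilobase of merged exons (log axis) for the 43 Slc25a genes, ordered by mean level, with 1 point per mouse, gray for control and orange for AF1 peptide, and a diamond for AF1 peptide replicate 1. Levels run from 7852 for Slc25a47 to 1.61 for Slc25a53. The diamond lies above all other points for 13 of the 41 tested genes, among them Slc25a22, Slc25a15, Slc25a25 and Slc25a51.

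By class, carriers of unsettled or other substrates held 23.5% ± 4.54 (SD, n = 8 mice) of the summed level, most of it Slc25a47, and carriers of di- and tricarboxylates 21.5% ± 1.67. Adenine nucleotide exchange took 15.3% ± 2.32, iron and glutathione 14.9% ± 1.11, amino acids 9.71% ± 2.14, ATP-Mg/phosphate exchange 5.23% ± 1.58 and cofactors with other nucleotides 4.26% ± 0.608. The smallest class was the relatives of uncoupling proteins at 0.164% ± 0.0286. The family as a whole had 36539 ± 1588 normalized counts per kilobase in control mice and 35228 ± 2254 in AF1 peptide mice (SD, n = 4 each), and the ranges of the groups overlapped.

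The comparison of AF1 peptide with control asked whether carrier transcripts follow the treatment. On the log2(normalized count + 1) scale, 1 of 41 members was higher (Slc25a27) and 1 was lower (Slc25a30) at an unadjusted p under 0.05 and more than 1.3-fold in the limma fit. Of all 15989 genes tested, 1.79% were called higher and 1.9% lower, so the members' counts are near this background. No member had a Benjamini-Hochberg adjusted p under 0.05 (smallest 0.763, limma), and neither did any of the 15989 genes. The values of the groups overlapped in all 41 tested members, while 2.05% of all genes were higher and 1.85% lower with no overlap. The fitted change was above 0 in 21 members and below 0 in 20, with a median log2 change of 0.0009 beside -0.0083 over all genes. With libraries scaled to equal totals the medians moved to -0.090 and -0.099 and 30 members lay below 0, so the sign of small changes depends on scaling.

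For most members the fitted change was small or its interval wide. It was within 1.3-fold in 36 of 41 members (87.8%), as in 86.3% of all genes. The 95% interval itself lay within 1.3-fold for 13 members (31.7%), within 1.5-fold for 23 and within 2-fold for 36 (87.8%), beside 24.9%, 55.1% and 82.9% of all genes tested. For the other members a change of that size is not excluded by the interval.

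**Figure D2:**
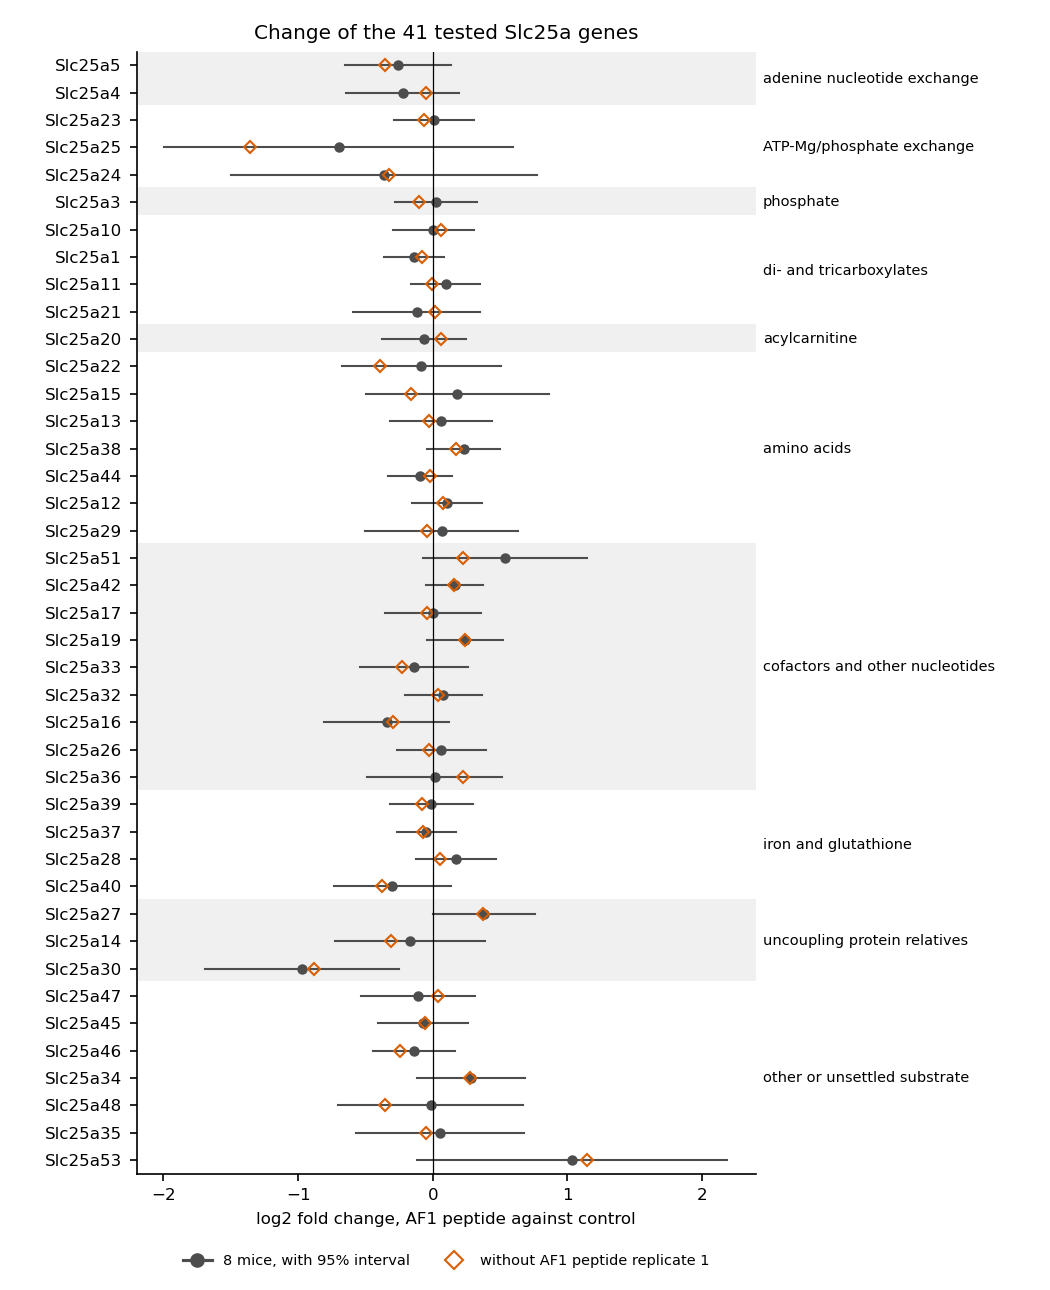
Log2 fold change of AF1 peptide against control for the 41 tested Slc25a genes, grouped by transport class and ordered by level within it, with gray points and 95% intervals from the limma fit on 8 mice and open orange diamonds for the fit without AF1 peptide replicate 1. The interval lies below 0 for Slc25a30 and just above 0 for Slc25a27, and the widest gaps between point and diamond include Slc25a25 (-0.70 and -1.36).

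The 3 relatives of uncoupling proteins held both calls. Slc25a30, a kidney mitochondrial carrier by its other name, had normalized counts of 20.6, 36.4, 29.2 and 46.9 in control mice and 13.1, 11.0, 22.2 and 19.3 in AF1 peptide mice. Only control replicate 1 lay below the highest AF1 peptide mouse, and the 3 other control mice were above all 4 treated mice. The log2 change was -0.97 (SE 0.33, 95% interval -1.69 to -0.25, unadjusted p = 0.0133 and adjusted p = 0.763 by limma). This gene is of low level, with 6 to 56 reads per library. Without AF1 peptide replicate 1 the change was -0.89 (unadjusted p = 0.0243, limma).

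Slc25a27, known as UCP4, had normalized counts of 117.0, 144.8, 117.8 and 187.6 in control mice and 184.8, 168.0, 207.6 and 169.0 in AF1 peptide mice. All treated mice were above 3 of 4 control mice, and control replicate 4 lay inside the treated range. The log2 change was 0.38 (SE 0.17, 95% interval 0.00 to 0.76, unadjusted p = 0.0476 and adjusted p = 0.763 by limma), which is just past the fold threshold. The call was lost when any mouse other than control replicate 4 was left out, with unadjusted p of up to 0.133 among these fits. Slc25a14, the third of the class, had 24.7 to 34.6 in control and 18.3 to 35.5 in AF1 peptide mice and a log2 change of -0.17 (SE 0.25). The log2 ratio of Slc25a30 to Slc25a14 was 0.12 ± 0.43 in control and -0.68 ± 0.49 in AF1 peptide mice (SD, n = 4 each) and did not overlap between groups (two-sided exact permutation test, p = 0.0286, the smallest that 4 against 4 can give, and 0.257 after adjustment over the 9 pairs of relatives tested).

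Among the ATP-Mg/phosphate carriers, which adjust the adenine nucleotide pool of the matrix in response to calcium, none of 3 was called. Slc25a25 had normalized counts of 8873, 4974, 7162 and 3027 in control mice and 13418, 1500, 2635 and 2591 in AF1 peptide mice. The highest of all 8 mice was AF1 peptide replicate 1, and the 3 other treated animals had less than any control. The log2 change was -0.70 (SE 0.59, 95% interval -2.0 to 0.60, unadjusted p = 0.258 by limma). Without AF1 peptide replicate 1 it was -1.36 (95% interval -2.05 to -0.67, unadjusted p = 0.00113 and adjusted p = 0.452 by limma), and the gene was then called lower. Among control mice alone its highest count was 2.93 times its lowest, a coefficient of variation of 42.4%, while Slc25a1 varied by 3.46% and Slc25a20 by 3.84%. Of its 3 listed starts, the one shown above is the one with the cAMP response element. Its transcripts share 4.15% of their 50-base words with Naif1, which overlaps it on the other strand.

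Slc25a23, which was steadier, had a log2 change of 0.01 (SE 0.13, 95% interval -0.29 to 0.31). Slc25a24 was of low level, with normalized counts of 14.8 to 36.8 in control and 7.31 to 45.0 in AF1 peptide mice, and its log2 change was -0.36 (SE 0.51). The log2 ratios of Slc25a23 to Slc25a25 (difference 0.71, two-sided exact permutation p = 0.314, n = 4 each) and of Slc25a24 to Slc25a25 (difference 0.34, exact p = 0.743) overlapped between groups, and AF1 peptide replicate 1 had the lowest of both. Without that mouse the Slc25a23 to Slc25a25 ratios no longer overlapped, while those of Slc25a24 to Slc25a25 still did.

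In the amino acid class 7 of 9 members were tested and none was called. Slc25a22, which carries glutamate with protons, had normalized counts of 9122, 7000, 7056 and 6709 in control mice and 13227, 6446, 4968 and 5653 in AF1 peptide mice. As for Slc25a25, AF1 peptide replicate 1 was the highest of all mice and the 3 others were the lowest. With all mice the log2 change was -0.08 (SE 0.27), and it was -0.39 without AF1 peptide replicate 1 (95% interval -0.68 to -0.10, unadjusted p = 0.0128 and adjusted p = 0.473 by limma).

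Slc25a15, which brings ornithine into the matrix for the urea cycle, had normalized counts of 5673, 4288, 3658 and 3385 in control mice and 9700, 4044, 3214 and 3954 in AF1 peptide mice. AF1 peptide replicate 1 was 2.41 times the mean of the other 7 mice, and the 3 others lay within or just below the control range. Its log2 change was 0.18 (SE 0.31) and without that mouse -0.16 (95% interval -0.52 to 0.20). The urea cycle enzyme Asl, argininosuccinate lyase, had a normalized count of 57546 in AF1 peptide replicate 1 and 15966 to 23080 in the 7 other mice.

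Slc25a13 and Slc25a12 are the aspartate-glutamate carriers of the malate-aspartate shuttle, the former being the liver form called citrin. Their log2 changes were 0.06 (SE 0.17) and 0.11 (SE 0.12), and their log2 ratio differed by 0.04 between groups (two-sided exact permutation p = 0.8, n = 4 each). In reads, Slc25a18, a second glutamate carrier, had 6, 5, 8 and 8 in control and 1, 2, 4 and 5 in AF1 peptide libraries, and Slc25a2, a second ornithine carrier, 3 to 12 over all libraries. Both were too low to test. The normalized counts of Slc25a18 were 4.92 to 8.65 in control and 0.933 to 4.59 in AF1 peptide mice, without overlap.

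**Figure D3:**
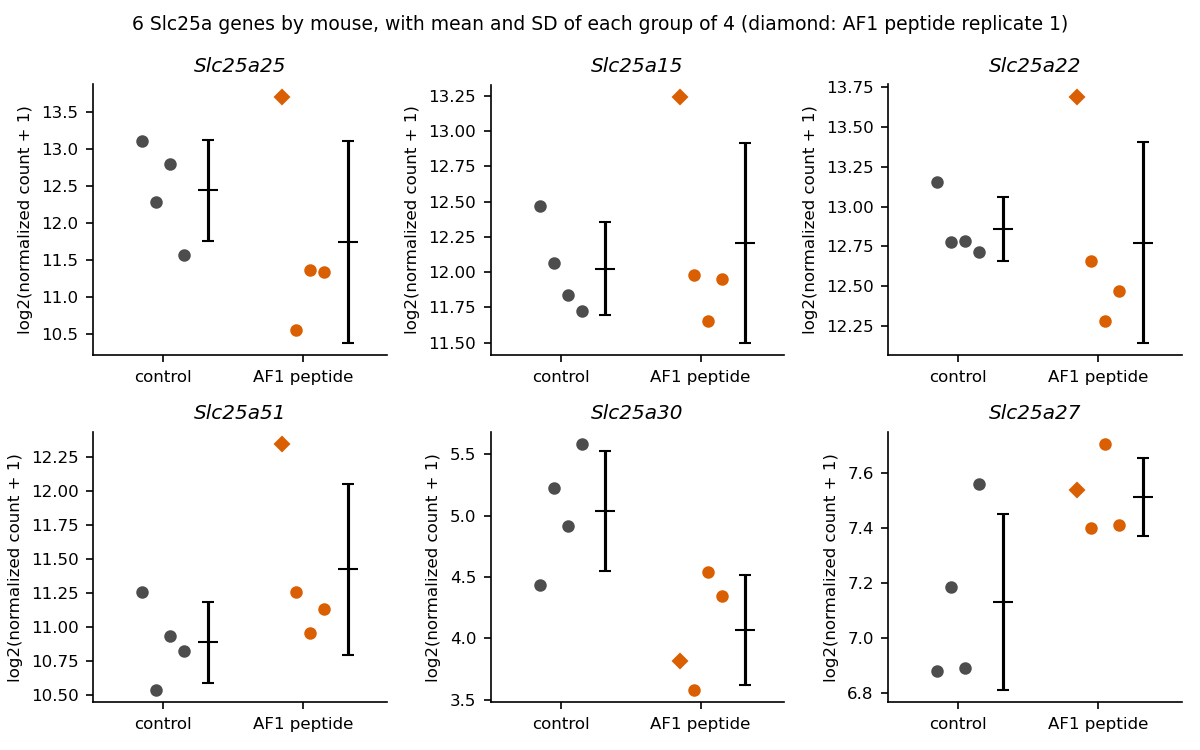
Log2(normalized count + 1) of 6 Slc25a genes in each mouse, with the mean and SD of each group of 4 as black bars. AF1 peptide replicate 1, drawn as a diamond, is the highest of 8 mice for Slc25a25, Slc25a15, Slc25a22 and Slc25a51, and lies within or near its own group for Slc25a30 and Slc25a27.

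None of the 9 carriers of cofactors and other nucleotides was called. Slc25a51, which imports NAD into mitochondria, had normalized counts of 2452, 1485, 1953 and 1815 in control mice and 5202, 2449, 1990 and 2243 in AF1 peptide mice. The 3 treated mice other than replicate 1 lay in the upper part of the control range, and replicate 1 lay far above it. The log2 change was 0.53 (SE 0.28, 95% interval -0.07 to 1.14, unadjusted p = 0.0790 by limma) and 0.23 without that mouse (95% interval -0.10 to 0.56). Without AF1 peptide replicate 3 it was 0.69 and the gene was called higher (unadjusted p = 0.0350, limma). Slc25a16, tied to coenzyme A in mitochondria, had a log2 change of -0.34 (SE 0.21), with 238 to 419 in control and 200 to 344 in AF1 peptide mice, and was called lower only without control replicate 3 (log2 change -0.51) among the fits that left out a mouse. The pyrimidine nucleotide carriers Slc25a33 and Slc25a36 had log2 changes of -0.14 (SE 0.18) and 0.02 (SE 0.23). Their log2 ratio differed by -0.15 between groups (two-sided exact permutation p = 0.629, n = 4 each). AF1 peptide replicate 1 had the highest ratio of all mice, 0.54. The other treated mice, at -0.56, -0.61 and -0.86, lay below the lowest control mouse at -0.51. The 5 other members of this class had log2 changes of 0.00 to 0.24.

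In the adenine nucleotide and phosphate classes no member was called. Slc25a5 had 7454 to 10926 normalized counts in control and 5891 to 9780 in AF1 peptide mice (log2 change -0.26, SE 0.18, 95% interval -0.66 to 0.14). Slc25a4, the form abundant in heart and muscle, had 207 to 240 and 129 to 244 (log2 change -0.22, SE 0.19), with AF1 peptide replicate 1 lowest of all mice. Their log2 ratio differed by 0.04 between groups (two-sided exact permutation p = 0.943, n = 4 each). Slc25a3 had a log2 change of 0.03 (SE 0.14, 95% interval -0.28 to 0.33).

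Of the di- and tricarboxylate carriers, Slc25a1 had normalized counts of 6283, 6747, 6329 and 6302 in control mice and 5117, 6283, 6218 and 5705 in AF1 peptide mice. The lowest mouse was AF1 peptide replicate 1, and the ranges met at 6283. Its log2 change was -0.14 (SE 0.10, 95% interval -0.36 to 0.08) and without that mouse -0.08. Slc25a10 and Slc25a11 had log2 changes of 0.00 (SE 0.14) and 0.10 (SE 0.11), and the sign for Slc25a10 turned under other scalings. Slc25a20 of the carnitine shuttle had a log2 change of -0.06 (SE 0.14), with 4456 to 4848 normalized counts in control and 3396 to 5319 in AF1 peptide mice. None of these 4 was called.

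In the iron and glutathione class, Slc25a39 had 11363 to 15479 normalized counts in control and 11464 to 14756 in AF1 peptide mice (log2 change -0.01, SE 0.14). Its relative Slc25a40 had 70.9 to 107 and 51.9 to 82.1 (log2 change -0.30, SE 0.20). The mitoferrins Slc25a37 and Slc25a28, which bring iron into the matrix, had log2 changes of -0.05 (SE 0.10) and 0.17 (SE 0.13), and the highest Slc25a28 count, 1192, was that of AF1 peptide replicate 1. The log2 ratios of Slc25a28 to Slc25a37 (difference 0.22, two-sided exact permutation p = 0.2, n = 4 each) and of Slc25a39 to Slc25a40 (difference 0.29, exact p = 0.314) overlapped between groups.

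Among carriers of other or unsettled substrates, Slc25a47 had normalized counts of 18714, 24388, 24620 and 29327 in control mice and 16483, 23786, 27707 and 22485 in AF1 peptide mice. AF1 peptide replicate 1 was lowest, and the other treated mice lay within the control range. Its log2 change was -0.11 (SE 0.19, 95% interval -0.53 to 0.32) and 0.04 without that mouse. Its relative Slc25a45 had a log2 change of -0.07 (SE 0.15), and their log2 ratio differed by -0.04 between groups (two-sided exact permutation p = 0.886, n = 4 each). Slc25a53 had the largest positive log2 change, 1.03, which was not called (SE 0.52, unadjusted p = 0.0738 by limma), from 4 to 23 reads per library. It was called higher without control replicate 4 (1.46) and without AF1 peptide replicate 4 (1.31). Slc25a48 had a normalized count of 132 in AF1 peptide replicate 1 and 43.7 to 77.8 in the 7 other mice.

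AF1 peptide replicate 1 was the highest of 8 mice in 13 of 41 members (31.7%, beside 25.9% of all genes) and the lowest in 7 (17.1%, beside 23.4%). Its count exceeded 1.5 times that of the highest other mouse in 4 members, Slc25a15, Slc25a25, Slc25a48 and Slc25a51, and in 3.37% of all genes tested. Without this mouse no member was called higher and 3 were called lower, Slc25a22, Slc25a25 and Slc25a30, beside 2.86% and 3.07% of all genes. In that fit 26 of 41 members and 8121 of all 15989 genes were below 0. No adjusted p was under 0.05 in it for any gene (limma).

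**Figure D4:**
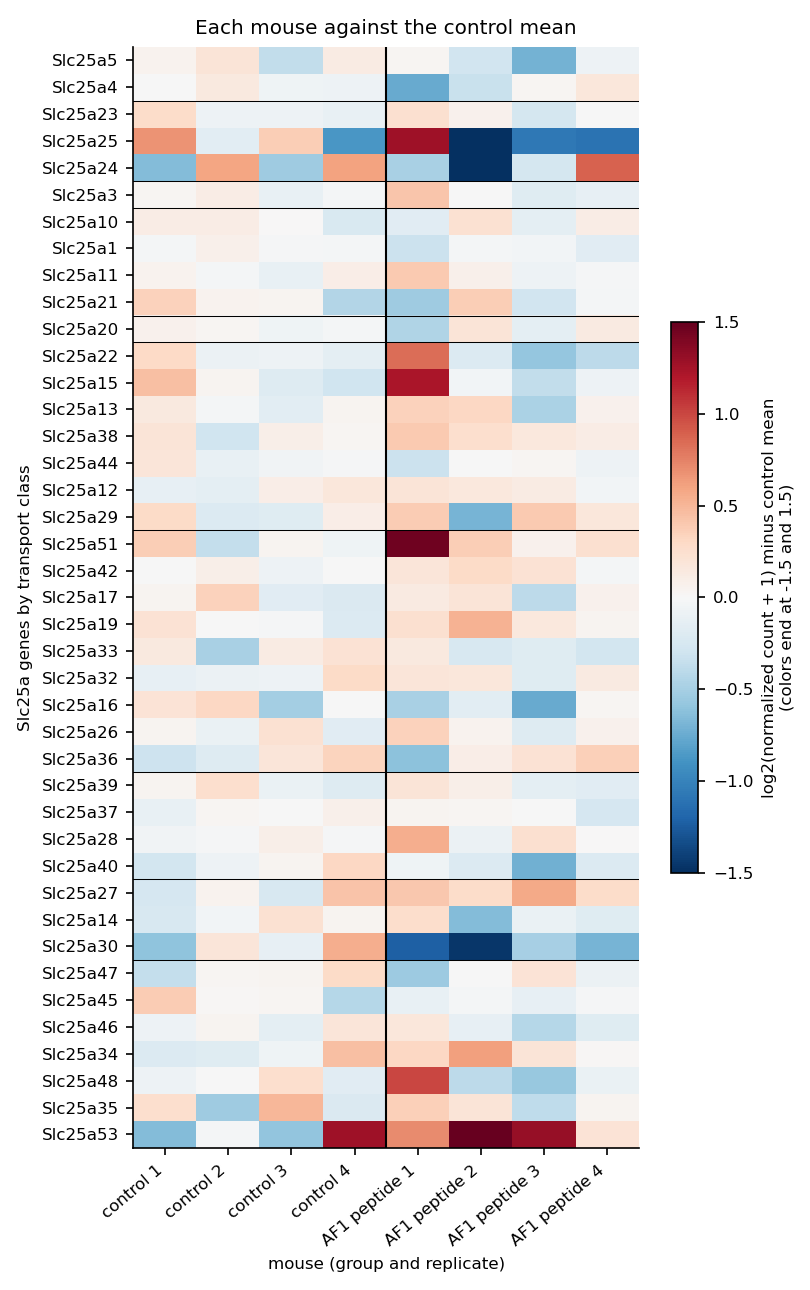
Log2(normalized count + 1) of each mouse minus the mean of the control mice, for the 41 tested Slc25a genes grouped by transport class, with red for higher and blue for lower and colors ending at -1.5 and 1.5. The column of AF1 peptide replicate 1 holds deep red cells at Slc25a25, Slc25a22, Slc25a15, Slc25a51 and Slc25a48, and the row of Slc25a30 is blue in all 4 AF1 peptide mice.

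Genes that work with the carriers were read from 10 lists of 62 genes, of which 60 were tested. None was called higher and 1 was called lower (1.79% and 1.9% of all genes), and at p under 0.05 with no fold threshold 1 was higher and 7 were lower, beside 3.16% and 3.03% of all genes tested. All their adjusted p were 0.763 or more (limma). In the list of carrier import, 2 of 10 genes had an unadjusted p under 0.05. Agk, acylglycerol kinase, which is also a subunit of the TIM22 complex, had normalized counts of 145, 138, 134 and 124 in control mice and 110, 93.1, 69.2 and 108 in AF1 peptide mice. The groups did not overlap, and the log2 change was -0.52 (SE 0.17, unadjusted p = 0.0112 and adjusted p = 0.763 by limma). Timm22, the channel of that complex, had 382, 381, 361 and 353 in control and 342, 314, 261 and 308 in AF1 peptide mice. These did not overlap either, and the log2 change was -0.28 (SE 0.11, unadjusted p = 0.0305 by limma), under 1.3-fold. The 8 other genes of the list, TOM subunits and small TIM proteins among them, had p above 0.05, and 4 of the 10 were above 0. Without AF1 peptide replicate 1 the list had 2 genes called lower and 7 of 10 below 0, beside 3.07% and 8121 of 15989 of all genes. The gene added to Agk was Tomm20, a receptor of the outer membrane, at 1051 normalized counts in that mouse, 579 to 693 in the other treated mice and 771 to 958 in control mice. Its log2 change was -0.32 with all mice (unadjusted p = 0.101, limma) and -0.52 without that mouse (unadjusted p = 0.000671, limma). The call of Agk held in each fit that left out a mouse, while the p of Timm22 passed 0.05 in 4 of these 8 fits, the largest being 0.0845 without AF1 peptide replicate 3.

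Of the enzymes in the shuttle lists, 3 were lower at p under 0.05 without reaching 1.3-fold. Pcx, pyruvate carboxylase, had 12289 to 14148 normalized counts in control and 10005 to 11722 in AF1 peptide mice without overlap (log2 change -0.29, SE 0.11, unadjusted p = 0.0216 by limma). Gpd2, the mitochondrial glycerol phosphate dehydrogenase, had a log2 change of -0.34 (SE 0.12) and Crot, carnitine octanoyltransferase, of -0.31 (SE 0.13), both with overlap. All 4 enzymes of the citrate-pyruvate shuttle were below 0, as were 8285 of 15989 of all genes. Their median was -0.28 beside -0.0083 over all genes. Leaving out AF1 peptide replicate 1, the 4 stayed below 0 with a median of -0.23 beside -0.0036. Only Pcx among the 4 had p under 0.05 in either fit (limma). Mpc1, a subunit of the mitochondrial pyruvate carrier, had a log2 change of -0.27 (SE 0.11, unadjusted p = 0.0344 by limma), and Gclm, a subunit of the enzyme that begins glutathione synthesis, one of -0.30 (SE 0.13, unadjusted p = 0.0465 by limma). Without AF1 peptide replicate 1, Got1 and Mdh1, enzymes of the malate-aspartate shuttle, were called lower. In that fit 4 of 60 partner genes were called lower and 44 were below 0, beside 3.07% and 8121 of 15989 of all genes. For Mdh1 the log2 change was -0.15 with all mice (unadjusted p = 0.599, limma) and -0.43 without that mouse (unadjusted p = 0.0366, limma), and for Got1 it was 0.16 (unadjusted p = 0.830, limma) and -0.72 (unadjusted p = 0.0230, limma). Of the 8 fits that left out a mouse, p stayed under 0.05 in 7 for Gpd2, 6 for Pcx and 3 each for Crot, Mpc1 and Gclm.

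Esrra, the estrogen-related receptor alpha that acts on mitochondrial genes, was the 1 partner gene higher at p under 0.05. Its normalized counts were 1574 to 1746 in control and 1794 to 2083 in AF1 peptide mice without overlap (log2 change 0.23, SE 0.09, unadjusted p = 0.0236 by limma), under 1.3-fold. Its p stayed under 0.05 in 5 of the 8 fits that left out a mouse, and with equal totals the log2 change was 0.14 (unadjusted p = 0.341, limma). No gene of the other 3 lists had p under 0.05, and the smallest were those of Asl in the urea cycle (log2 change 0.33, SE 0.36), Vdac2 among outer membrane pores (0.08, SE 0.09) and Ucp2 among carriers under other symbols. Ucp2, uncoupling protein 2, had 2101 to 3456 normalized counts in control mice and 300, 3187, 3038 and 2837 in AF1 peptide mice. Its log2 change was -0.54 (SE 0.65) with all mice and 0.29 without AF1 peptide replicate 1, where its count was the lowest. Kupffer cells are known for Ucp2, and their summed markers were also lowest in that mouse. So were those of hepatocytes, sinusoidal endothelium, stellate cells, biliary epithelium and red blood cells. The part of these differences in the Ucp2 result was not tested.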

How the data were processed

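The authors trimmed reads of stranded mRNA libraries with Trim Galore 0.6.7, aligned them with HISAT2 (mm39 per the labels), ordered the alignments with SAMtools 1.17 and used GenomicAlignments to count reads per gene. The deposited signal values are normalized counts, read counts that the authors divided by 1 size factor per library. The tool for normalization, the annotation and the use of strand in counting are not given in the sources used here, so reads of overlapping genes on opposite strands could be mixed. Whole reads were recovered for 100% of 172256 values (tolerance 0.01 reads), and the lowest gene total was 10 reads. The table was mapped to mice by its column names, and 0 columns were left out.

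Each of the 8 libraries is 1 mouse, and replicates of a group differed by 16.1 to 344 chi-square per degree of freedom, so none was a duplicate. Groups were compared on log2(normalized count + 1) in R 4.3.3 by limma 3.58.1 (moderated variances with an intensity trend, two-sided, no pairing) over 15989 genes of mean normalized count at least 10. Calls need an unadjusted p under 0.05 and more than 1.3-fold, as the study chose p under 0.05, and Benjamini-Hochberg adjustment ran over all genes tested. Log2 ratios of 9 pairs of related carriers were put to two-sided exact permutation tests. The fit was tested on simulated data. DESeq2 1.42.0 and edgeR 4.0.16 fits of the whole reads, other scalings, filters and pseudocounts, a replicate block and leaving out each mouse were alternatives. Depth was 23031880 to 45117528 reads, so genes of few reads have wide errors.

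Members named with values are those with an unadjusted p under 0.05 or no overlap between groups, the 10 highest levels, the 8 largest tested changes, pairs of relatives and the highest of each class. From each partner list up to 3 genes with p under 0.05 are named, or the 1 with the smallest p. Slc25a48, Slc25a32, Tomm20, Tomm70a, Timm29, Got1 and Mdh1, and Slc25a21 and Slc25a34 for their promoters, were named after their values were seen. The members, lists and tests were chosen with earlier results of these data known. Gene lengths, overlaps and shared 50-base words came from GENCODE M21 and promoter windows from RefSeq, both of GRCm38, whose coordinates were not mixed with those of mm39. Summed markers use the genes of each list found in the table.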

Additional observations from a re-analysis of the deposited data

Results flagged for a closer look

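In each group of 4 mice the gap between the most distant mouse and its nearest neighbour was divided by the range of the group, and the groups past the 95% critical value of Dixon's test are given here. Of 110 groups examined, 12 passed, and chance alone passes about 1 in 20. AF1 peptide replicate 1 was the distant mouse in 4 of them. It was far above the other treated mice for Slc25a25 (gap 0.905 of the range), Slc25a15 (0.872) and Slc25a51 (0.857), and far below them for the share held by the 5 highest members (0.852). AF1 peptide replicate 3 was low for Slc25a32, with a normalized count of 408 against 512 to 528 (0.862), and high for the log2 ratio of Slc25a12 to Slc25a13, -2.56 against -3.31 to -3.26 (0.938). AF1 peptide replicate 4 was low for Slc25a37, 2012 against 2391 to 2456 (0.854).

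Among control mice, replicate 1 was high for Slc25a22, 9122 against 6709 to 7056 (0.856), and for Slc25a23, 7462 against 5718 to 5854 (0.922). Control replicate 2 was high for Slc25a1, 6747 against 6283 to 6329 (0.900), and low for Slc25a33, 112 against 172 to 183 (0.838). Control replicate 4 was high for Slc25a32, 565 against 428 to 441 (0.903).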

How the results depend on the processing

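Slc25a30 kept its direction and an unadjusted p under 0.05 in all 20 alternatives, with log2 changes of -1.17 to -0.79 and p of 0.00587 to 0.0470. Slc25a27 kept its direction in all 20 (0.29 to 0.53) and stayed under 0.05 in 5 of them. Members called higher numbered 0 with pseudocount 5, TMM scaling, equal totals, equal totals outside mitochondrially encoded genes, no intensity trend, own variance or edgeR, and Slc25a51 took the place of Slc25a27 under DESeq2. At an adjusted p under 0.05 the limma counts were 0 for members, partner genes and all genes, where 1 and 1 of 41 members had an unadjusted p under 0.05. DESeq2 gave 3 of all genes and 0 members an adjusted p under 0.05, and edgeR 0.

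Over all genes 286 were called higher and 304 lower. These counts became 435 and 459 with no filter, 122 and 602 with equal totals, 506 and 484 with no fold threshold, and 197 lower with own variance. Equal totals moved the median log2 change of all genes to -0.0987 and the higher share of calls from 48.5% to 16.9%. Partner genes called lower numbered 2 with no filter or DESeq2, 6 with equal totals and 7 with no fold threshold, where 1 was higher. The share of the 5 highest members was 58.9% with coding length and 55.8% with no length. With equal totals the log2 change turned to -0.066 for Slc25a3, -0.087 for Slc25a10, -0.027 for Slc25a13, -0.083 for Slc25a23, -0.075 for Slc25a36 and -0.012 for Vdac2. Slc25a10 was -0.0031 with TMM scaling, and Slc25a22 was 0.016 with edgeR and 0.020 with DESeq2. With equal totals outside mitochondrially encoded genes the median of all genes was -0.0093. In that fit Slc25a3 (0.025), Slc25a10 (0.0033), Slc25a13 (0.063), Slc25a23 (0.0076) and Slc25a36 (0.015) kept the sign of the fit on the deposited counts. Mitochondrially encoded genes took 22.4% to 34.3% of reads in control mice, and 20.8%, 37.8%, 34.3% and 36.1% in AF1 peptide replicates 1 to 4. The cause of these turns was not tested.

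Leaving out 1 mouse at a time gave 0 to 3 members higher and 1 to 3 lower, 198 to 457 and 173 to 491 of all genes, 0 to 1 and 1 to 4 partner genes, and 1 to 3 pairs of relatives without overlap, the 3 being without AF1 peptide replicate 1. These fits turned the sign of small log2 changes, with ranges of -0.11 to 0.096 for Slc25a3, -0.071 to 0.064 for Slc25a10, -0.0035 to 0.15 for Slc25a11, -0.032 to 0.24 for Slc25a13, -0.16 to 0.37 for Slc25a15, -0.15 to 0.064 for Slc25a20, -0.39 to 0.081 for Slc25a22, -0.067 to 0.10 for Slc25a23, -0.78 to 0.045 for Slc25a24, -0.099 to 0.23 for Slc25a36, -0.084 to 0.021 for Slc25a37, -0.077 to 0.075 for Slc25a39, -0.21 to 0.056 for Slc25a45, -0.23 to 0.036 for Slc25a47, -0.097 to 0.52 for Asl and -0.85 to 0.29 for Ucp2.

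The replicate numbers name different mice. Deviations of same-numbered mice correlated at -0.0640 to 0.235 (mean 0.103, n = 4). Those of other pairs correlated at -0.272 to 0.137 (mean -0.0342, n = 12). The pairs of replicate 1 (0.235) and replicate 3 (0.216) had the highest values of all. Whether the numbers mark anything shared by mice was not tested. With the replicate block 1 member was called higher (Slc25a51) and 1 lower (Slc25a30), beside 341 and 392 of all genes. The member with the widest error was Slc25a25 (SE 0.59), which had 821 to 14379 reads per library. Genes of few reads followed, Slc25a53 (0.52), Slc25a24 (0.51) and Slc25a30 (0.33). Slc25a2 and Slc25a18 were too shallow to test.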

Other observations

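AF1 peptide replicate 3 was the lowest of the 8 mice in 13 of 41 members (31.7%), beside 17.9% of all genes tested, and the highest in 2 (4.88%, beside 15.5%). Its lowest counts included those of Slc25a3 (4974), Slc25a5 (5891), Slc25a13 (1688), Slc25a15 (3214), Slc25a16 (200), Slc25a22 (4968), Slc25a23 (5134) and Slc25a40 (51.9). In the carrier import list it was also lowest for Agk (69.2), Timm22 (261), Tomm20 (579), Tomm70a (1131) and Timm29 (460), and not for the rest.

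Got1, the cytosolic aspartate aminotransferase of the malate-aspartate shuttle, which was singled out after its values were seen, had a normalized count of 21908 in AF1 peptide replicate 1 and 1533 to 5937 in the 7 other mice. Control replicate 1 had the highest of these 7. The same mouse, control replicate 1, also had the highest control counts of Slc25a25, Slc25a15, Slc25a22 and Slc25a51. AF1 peptide replicate 1 was also the highest of 8 mice for Slc25a48 and Slc25a3. There the highest control counts were those of control replicate 3 (77.8) and control replicate 2 (6129). How often control replicate 1 was the highest control over all genes was not counted.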
